A study of Mus musculus with 48 samples.

Results

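The genes described here are the mouse potassium channel genes, taken as every gene whose symbol begins with Kcn and continues with letters and then digits. They number 92 of the 54331 genes in the deposited tables, all 92 are annotated as protein coding, and they lie on 19 chromosomes. Potassium channels let potassium ions leave a cell and so set its resting potential, end its action potentials and limit how fast it can fire again. The family falls into voltage-gated channels (Kv, with pore subunits such as Kcna, Kcnb, Kcnc, Kcnd and Kcnq and helper subunits such as Kcnab and Kcnip), calcium- and sodium-activated channels (Kcnm, Kcnn, Kcnt), inward rectifiers (Kcnj) and background leak channels (Kcnk). In myelinated axons such as those of the optic nerve, Kv1 channels sit beside the nodes of Ranvier and at terminals, while glia take up the potassium that axons release through inward rectifiers.

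The study followed polyadenylated RNA in axons that leave the eye. These belong to RGC (retinal ganglion cells), and they end in SC (the superior colliculus) or in LGN, short for lateral geniculate nucleus. EU libraries hold RNA that had taken up 5-ethynyl uridine injected into the vitreous and was then purified by that label. TRAP libraries hold RNA recovered with ribosomes by the axon-TRAP technique (translating ribosome affinity purification). There are 48 libraries in 15 groups.

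The groups carry the genotypes sarm1ko, fmr1ko or wild type. The sarm1ko group was axotomized and consists of 3 EU libraries of SC at P14 followed by a 7-day chase. The fmr1ko groups, all of them naïve and aged P14, are EU from SC (n = 3), TRAP from SC (n = 3) and FACS-sorted eye cells (n = 3). The wild-type naïve SC groups are EU at P10 (n = 3), EU at P10 with a 4-day chase (n = 3), EU at P14 (n = 5), EU at 8 weeks (n = 3), TRAP at P10 (n = 3) and TRAP at P14 (n = 5). The wild-type naïve LGN groups at P14 are EU (n = 2) and TRAP (n = 3), and the wild-type naïve eye groups at P14 are FACS (n = 3), immunopanned RGC (n = 3) and EU-labelled immunopanned RGC (n = 3). The title codes of the P14 SC libraries form 2 series: replicates 1 and 2 share theirs with LGN, and replicates 3 to 5 share theirs with the remaining groups of SC. Where a main fit used P14 SC libraries, it took replicates 3 to 5, except the fits of SC with LGN, which took replicates 1 and 2. The protocol describes EU samples as pools of 3 animals, and the labels name neither the driver of the tagged ribosome nor the sorting gate. The labels do not tie libraries of 1 group to separate animals, and p-values therefore reflect library-to-library spread, which may be technical.

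Library totals ran between 2558140 and 48263700 estimated counts, and 32 to 86 of the 92 genes had counts in a library. In the sarm1ko libraries the targeted gene Sarm1 was at 2.5, 7.63 and 0.795 TPM, against 25.4, 39.6 and 16.4 TPM in P14 EU replicates 3 to 5. The other wild-type EU libraries of SC held 2.17 to 40 TPM of Sarm1, a range that overlaps the sarm1ko values. Fmr1 was at 12.2, 2.27 and 15.4 TPM in the EU libraries labelled fmr1ko, against 0.843, 1.18 and 0.424 TPM in wild-type P14 replicates 3 to 5. The other wild-type EU libraries of SC held 0 to 13.4 TPM. The Fmr1 level thus does not bear out the label, and these libraries are called by it only. In TRAP Fmr1 was at 0.0584, 6.01 and 3.62 TPM in libraries labelled fmr1ko, against 2.16, 1.27 and 5.37 TPM in wild type, and in FACS at 26.6, 2.58 and 2.96 TPM, against 21.2, 13 and 5.48 TPM in wild type. One TRAP library labelled fmr1ko, replicate 2, held 122806 CPM (a gene's counts scaled to a common library total) of 10 rod photoreceptor markers, where the wild-type P14 TRAP libraries of SC held 1.22 to 5.82 CPM. The other TRAP libraries labelled fmr1ko held 1412 and 1817 TPM of Meg3, a nuclear long non-coding RNA, against 3.86 to 22.8 TPM in wild-type P14 TRAP and 1367 to 4921 TPM in wild-type P14 EU. EU-labelled panned RGC libraries held 8026 to 121030 CPM of the rod markers and 187 to 552 CPM of 10 RGC markers, so rod markers exceeded RGC markers in each of them.

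In P14 SC the most abundant channel transcripts came from several branches of the family, and the order differed between EU and TRAP libraries. Levels are TPM, which are scaled per transcript length and so allow genes to be compared, as mean ± SD over replicates 3 to 5 (n = 3). In EU libraries the order began with Kcnc1, a Kv3 subunit for brief action potentials, at 134 ± 49.9 TPM. It was followed by Kcnab2, a cytoplasmic beta subunit of Kv1 channels, at 112 ± 16.3 TPM, and Kcnip3, a calcium-binding Kv4 partner, at 84.8 ± 18.3 TPM. Lower in the order stood Kcna1 at 78.7 ± 16.8 TPM and the sodium-activated channel Kcnt1 at 63.8 ± 30.7 TPM. Kcnab2 and Kcnip3 differed by more than either SD, while the other neighbours named here did not differ beyond the larger of their SDs. Further genes lay between 28.2 and 41.8 TPM: Kcnc4, a Kv3 subunit, at 41.8 ± 14 TPM, Kcnj9 at 33 ± 8.41 TPM, Kcnip2 at 32.1 ± 16.8 TPM, Kcna6 at 30.5 ± 6.2 TPM, Kcnab3 at 28.7 ± 5.66 TPM and Kcnip1 at 28.2 ± 24.1 TPM. In these libraries 57 of the 92 genes averaged at least 1 TPM and 25 at least 10 TPM, and the summed level of the family was 1097 ± 169 TPM.

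TRAP libraries of the same age and tissue led with other genes. Kcnip1 and Kcnip3, both Kv4 partners, averaged 88.8 ± 28.4 and 86.7 ± 20 TPM. Kcnj10, the Kir4.1 channel of astrocytes and Müller glia, averaged 76.9 ± 61 TPM, and Kcnk1, a leak channel, 67 ± 42.5 TPM. Kcnab2 averaged 57.4 ± 17.4 TPM and Kcnc1 36.3 ± 11.5 TPM. Kcnn2 (a small-conductance calcium-activated channel) at 30.3 ± 13.3 TPM, Kcna6 at 30 ± 3.37 TPM, Kcnmb4 (a neuronal BK beta subunit) at 25.4 ± 7.98 TPM, Kcnip2 at 25.2 ± 8.6 TPM and Kcnc4 at 23.6 ± 9.95 TPM were also among the leading genes, and none of these differed from the next one named beyond the larger SD. The family sum was 962 ± 267 TPM. In bulk libraries such as these, fewer cells of a type and less RNA per cell cannot be told apart.

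**Figure D1:**
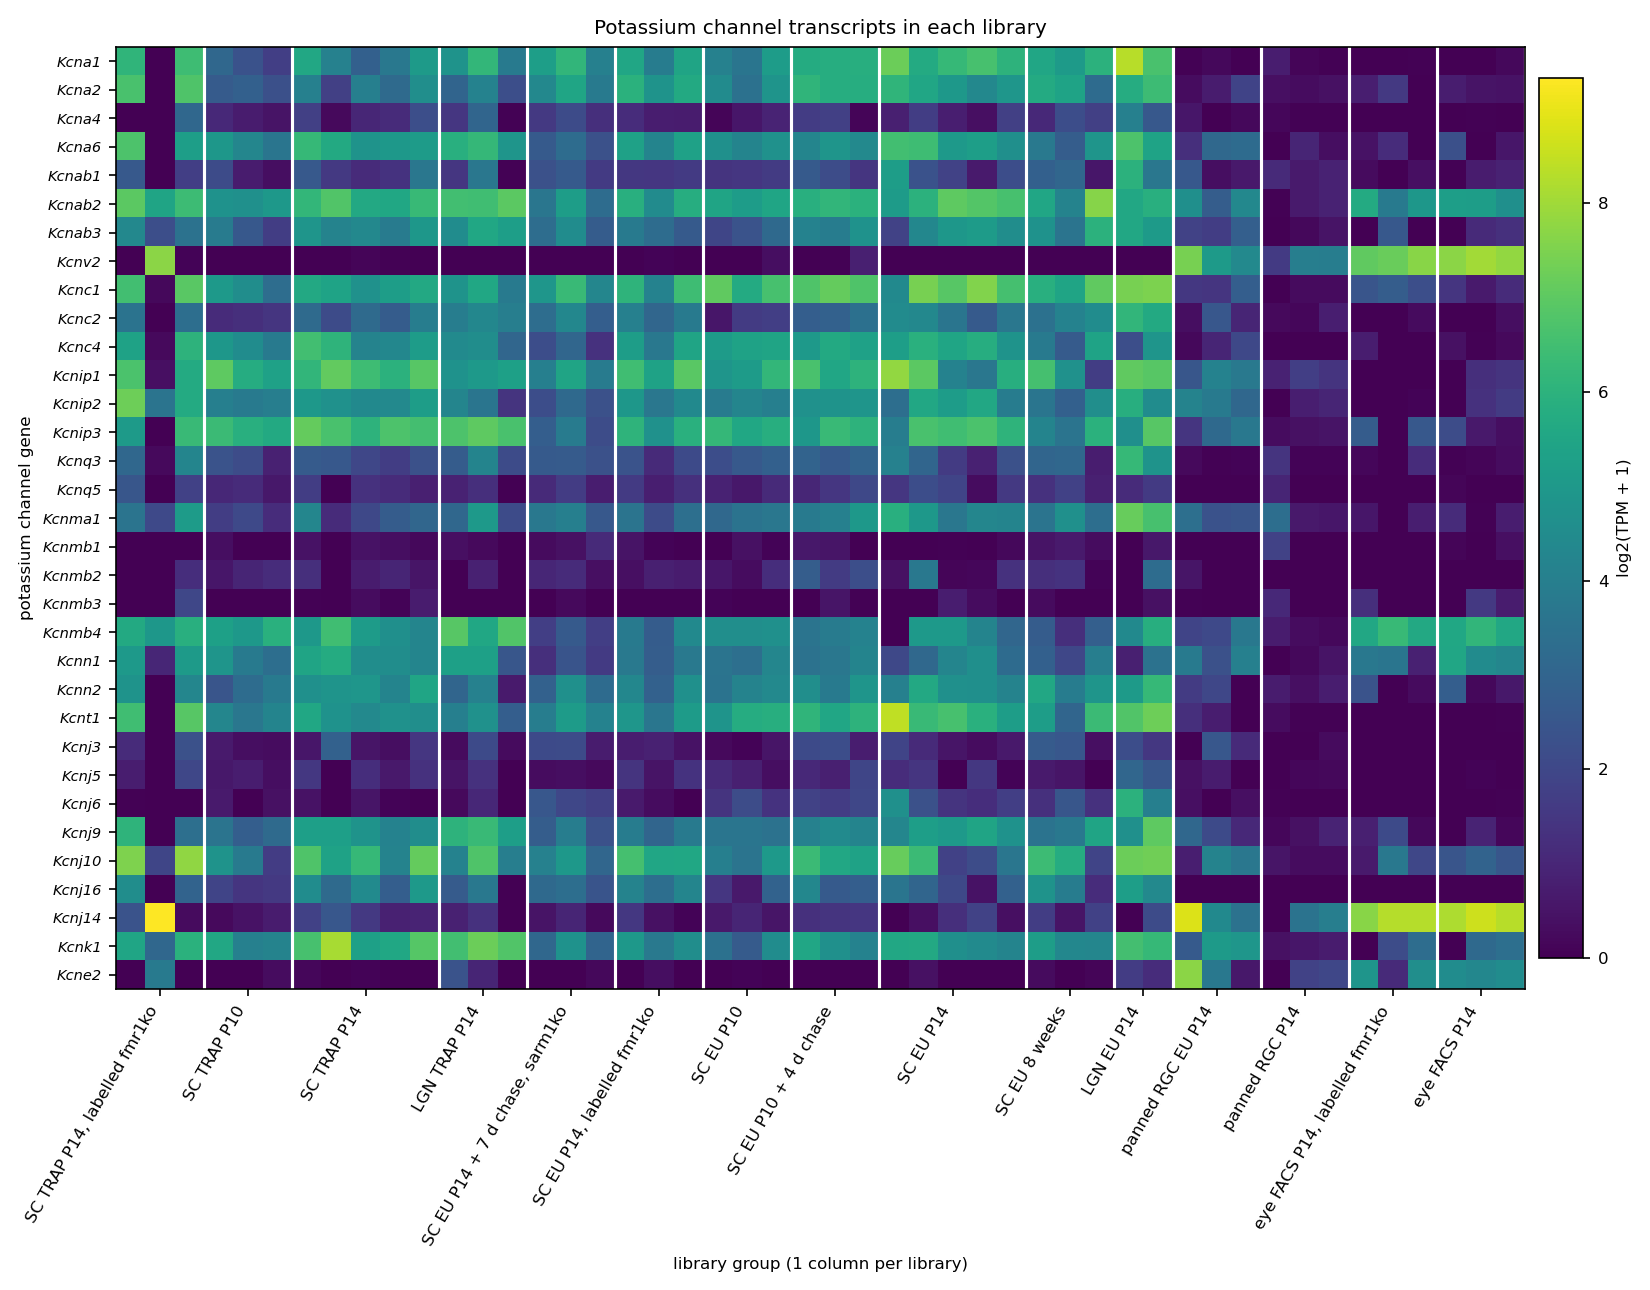
Heat map of log2(TPM + 1) of the named potassium channel genes, 1 row per gene and 1 column per library, for all 48 libraries in their groups (white lines part the groups). Kcnv2 and Kcnj14 are bright in the eye FACS libraries and in replicate 2 of TRAP labelled fmr1ko, where Kcna1 and Kcnip3 are dark.

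The other members of these subfamilies were mostly lower in P14 SC. Of the axonal Kv1 genes, Kcna2 was at 15.7 ± 7.59 TPM in TRAP and 26.2 ± 5.83 TPM in EU, Kcna4 at 1.95 ± 1.49 TPM in TRAP and 1.15 ± 1.1 TPM in EU, and Kcnab1 at 4.92 ± 6.11 TPM in TRAP and 2.24 ± 1.52 TPM in EU. Kcnc2, another Kv3 gene, was at 9.4 ± 4.45 TPM in TRAP and 9.54 ± 3.81 TPM in EU. Kcnq3 and Kcnq5, subunits of M-current channels, stayed under 4 TPM in every one of these 6 libraries. Kcnma1, the BK pore, was at 5.33 ± 2.19 TPM in TRAP and 16 ± 3.59 TPM in EU, and Kcnmb4 was at 18.8 ± 12 TPM in EU, while Kcnmb1, Kcnmb2 and Kcnmb3 averaged under 1 TPM in both. Of the G-protein-gated rectifiers (GIRK) only Kcnj9 was abundant, at 21.9 ± 5.01 TPM in TRAP and 33 ± 8.41 TPM in EU, and Kcnj3, Kcnj5 and Kcnj6 averaged under 2 TPM. Kcnj16, the glial partner of Kcnj10, was at 19.4 ± 12.8 TPM in TRAP and 3.27 ± 3.03 TPM in EU. Over all 48 libraries Kcnj1 was listed at 0 throughout, and Kcna10, Kcna7, Kcng3, Kcnk16 and Kcnk18 also never reached 1 TPM.

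To see how the family changed with age, EU libraries of wild-type SC at P14 were compared with those at P10. The edgeR quasi-likelihood test, with p-values adjusted over all tested genes and called under 0.05, found 4 genes higher and 0 lower among the 70 tested, which is 5.71%, against 2.03% of all tested genes called in either direction and 0.91% called higher. All 4 are subunits of Kv1 or GIRK channels. At an unadjusted p under 0.05 there were 12 genes (17.1%, against 18.3% of all), and the ages were apart without overlap in 11 (15.7%, against 25.7% of all). Values are normalised CPM, scaled within each comparison.

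Kcnab3, a Kv1 beta subunit, was at 44, 56.3 and 36.5 CPM at P14, against 4.74, 7.45 and 11.4 CPM at P10 (log2 fold change 2.53 ± 0.46 SE, adjusted p = 0.0233). Kcnab2 was at 339, 337 and 281 CPM at P14, against 126, 107 and 110 CPM at P10 (1.48 ± 0.27, adjusted p = 0.0242). The beta subunits thus separated the ages without overlap, and they rose together with Kcna1, the pore of the juxtaparanodal Kv1 channel. Kcna1 was at 175, 257 and 169 CPM at P14, against 41.2, 31 and 78.4 CPM at P10 (1.99 ± 0.39, adjusted p = 0.03). Kcnj9, the Kir3.3 subunit of GIRK channels, was at 90.8, 139 and 82.7 CPM at P14, against 35.4, 38.2 and 28.1 CPM at P10 (1.62 ± 0.33, adjusted p = 0.036). Neither gene overlapped between the ages. Kcna2, the usual partner of Kcna1, was at 261 ± 49.4 CPM at P14 and 187 ± 67.8 CPM at P10 (0.48 ± 0.34, adjusted p = 0.494), and Kcnc2 at 32.9 ± 15.9 CPM at P14 and 5.76 ± 3.23 CPM at P10 (SD, n = 3 each, 2.51 ± 0.63, adjusted p = 0.0626).

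Promoters are shown for genes called here and for Kcnj10, the neighbour of Kcnj9 on the opposite strand, since both move in later comparisons. They run from 250 bases before to 50 bases after the annotated start and come from RefSeq on GRCm38.p6. Capitals mark 3 promoter motifs on either strand, the TATA box TATAAA, read as TTTATA on the other strand, the CCAAT box, read there as ATTGG, and the GC box GGGCGG, read there as CCGCCC. For Kcnab2, which has 3 starts in the table, the most upstream is given, at chr4:152477500-152477799 on the minus strand. Kcnj9 is at chr1:172329273-172329572 on the minus strand, and Kcnj10 at chr1:172340960-172341259 on the plus strand.
Kcnab2: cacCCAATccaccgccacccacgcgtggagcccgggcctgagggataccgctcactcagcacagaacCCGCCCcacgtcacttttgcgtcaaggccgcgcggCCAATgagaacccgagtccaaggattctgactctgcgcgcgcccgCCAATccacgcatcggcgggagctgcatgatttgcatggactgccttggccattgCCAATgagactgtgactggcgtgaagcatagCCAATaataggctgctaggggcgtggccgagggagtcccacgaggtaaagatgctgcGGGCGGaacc
Kcnj9: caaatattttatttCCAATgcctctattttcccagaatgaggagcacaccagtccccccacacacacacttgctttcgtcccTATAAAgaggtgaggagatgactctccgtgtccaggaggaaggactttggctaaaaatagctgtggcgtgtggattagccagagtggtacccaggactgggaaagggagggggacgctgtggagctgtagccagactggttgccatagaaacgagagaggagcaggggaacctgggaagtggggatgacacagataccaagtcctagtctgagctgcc
Kcnj10: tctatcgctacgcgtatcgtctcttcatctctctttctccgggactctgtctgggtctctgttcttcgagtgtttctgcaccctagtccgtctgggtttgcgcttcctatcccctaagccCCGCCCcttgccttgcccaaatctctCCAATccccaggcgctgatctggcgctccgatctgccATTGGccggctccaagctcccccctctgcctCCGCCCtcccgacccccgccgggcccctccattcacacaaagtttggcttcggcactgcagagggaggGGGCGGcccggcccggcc
The Kcnab2 window held 5 CCAAT and 2 GGGCGG matches at 62.7% GC, the Kcnj9 window 1 TATAAA and 1 CCAAT match at 52.3% GC, and the Kcnj10 window 2 CCAAT and 3 GGGCGG matches at 63.7% GC. Of the promoters listed for 67 of the 92 genes, 92 windows in all, 5.43% held TATAAA, 30.4% CCAAT and 47.8% GGGCGG, against 13.6%, 37.4% and 35.7% of all 32851 promoters. A match is a description of the letters in the window. Kcna1 lies at chr6:126640397-126646384 and Kcnab3 at chr11:69326258-69333042, where exons of Kcnab3os overlap it on the opposite strand. The library kit does not mark strand, so reads of a gene and of an opposite-strand partner, which 26 of the 92 genes have, cannot be told apart.

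Of 35 partner genes of potassium channels, 33 were tested and 1 rose, Lgi3, a secreted ligand of the ADAM family receptors found at Kv1 clusters (380 ± 87 CPM at P14, 125 ± 11 CPM at P10, log2 fold change 1.61 ± 0.29, adjusted p = 0.0237). Markers of oligodendrocytes moved with age: 6 of 10 rose, and their sum was 12483 to 17074 CPM at P14 and 1683 to 2723 CPM at P10. Of 10 astrocyte markers, 2 rose. Their part in the channel result was not tested. The 4 calls rest on few libraries: without P14 replicate 3 or 4, or P10 replicate 1 or 2, 0 genes were called, without P10 replicate 3, 2 were, and without P14 replicate 5, 12 were. With all 5 P14 libraries 0 were called.

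**Figure D2:**
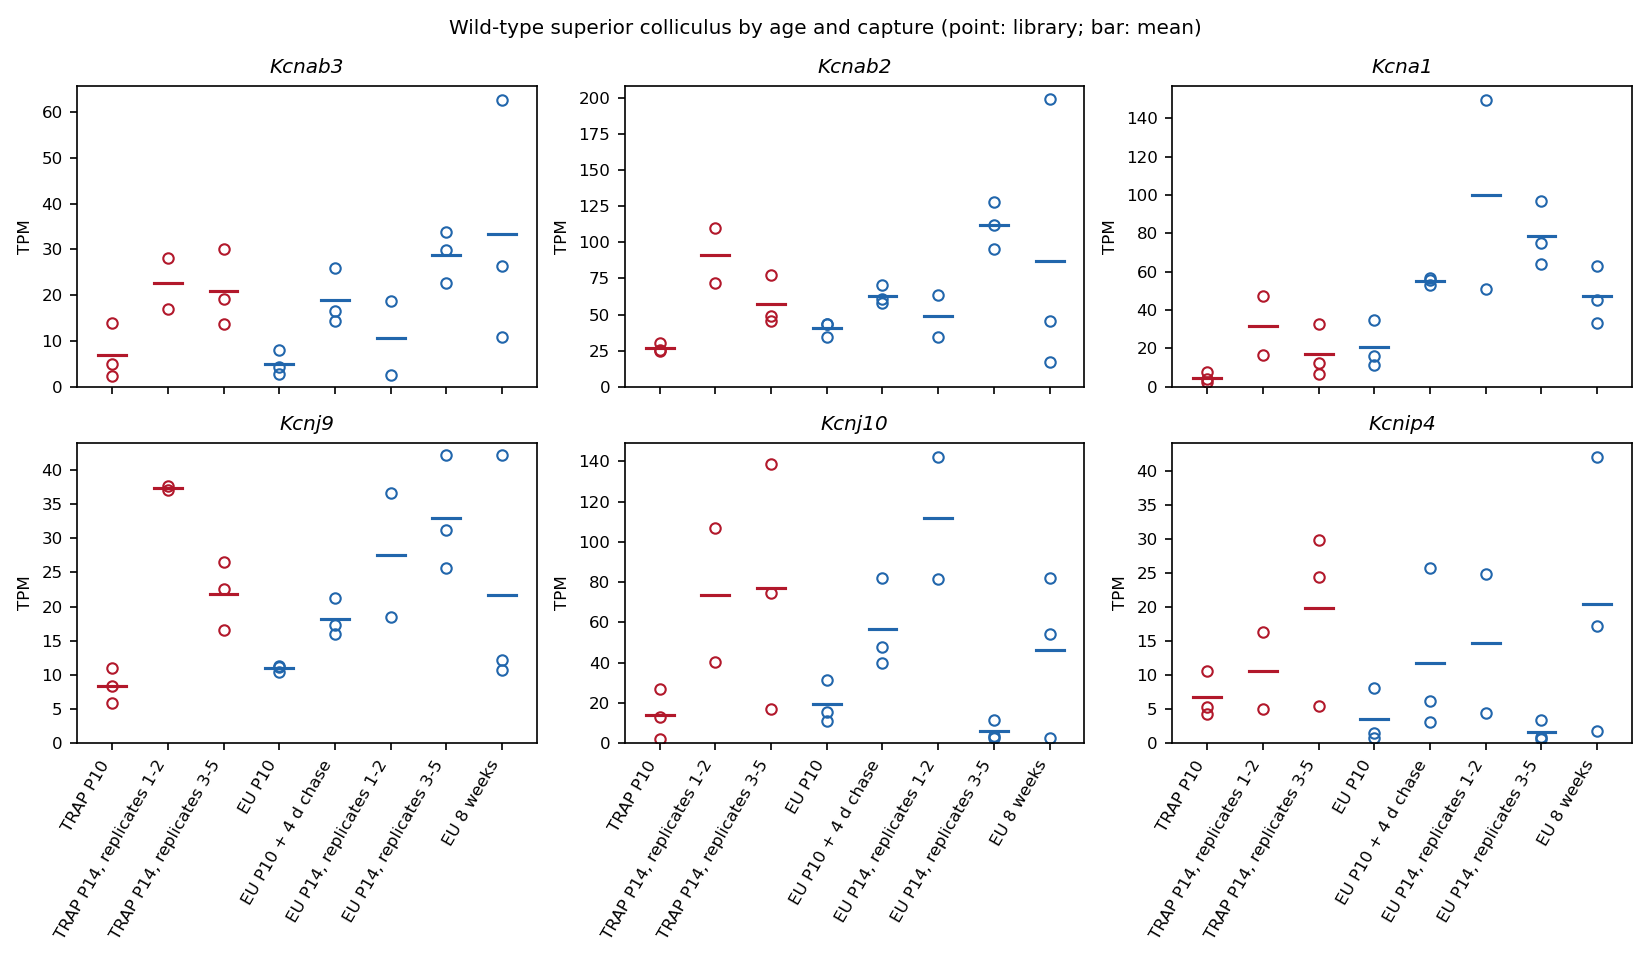
TPM of 6 genes in wild-type SC libraries (points are libraries, bars are means), with TRAP at P10 and P14 and EU at P10, P10 with a 4-day chase, P14 and 8 weeks, and with replicates 1 and 2 of P14 apart from 3 to 5. Kcnab3, Kcnab2, Kcna1 and Kcnj9 are higher in EU P14 replicates 3 to 5 than in EU P10, and Kcnj10 and Kcnip4 are lower in EU P14 replicates 3 to 5 than in replicates 1 and 2.

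No potassium channel gene was called in the other age comparisons by edgeR. For the 4-day chase after P10 against P10 in EU libraries, 0 of 69 genes were called, against 0.00597% of all genes, with 13 at an unadjusted p under 0.05 (18.1% of all genes) and 8 called by DESeq2. The groups of 20 genes did not overlap (29%, against 25.6% of all). Kcna2 was at 614, 497 and 480 CPM after the chase, against 257, 129 and 268 CPM at P10 (log2 fold change 1.28 ± 0.33, adjusted p = 0.151). Kcna1 was at 129, 129 and 125 CPM after the chase, against 49.2, 36.5 and 88.9 CPM at P10 (1.13 ± 0.34, adjusted p = 0.167). Both were without overlap between the groups, in the direction of higher values after the chase. Kcnmb4 was at 8.52, 10.8 and 12.9 CPM after the chase, against 25.9, 29.4 and 23.9 CPM at P10 (-1.29 ± 0.36, adjusted p = 0.159).

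For P14 against P10 in TRAP libraries, 0 of 74 genes were called, against 0% of all genes, with 12 at an unadjusted p under 0.05 (14.4% of all genes) and 5 called by DESeq2. The groups of 12 genes did not overlap (16.2%, against 22% of all). Kcnj16 was at 55.3, 17.9 and 68.1 CPM at P14, against 8.97, 6.78 and 10.5 CPM at P10 (2.42 ± 0.54, adjusted p = 0.151), with no overlap. Kcna1, called in EU, was at 14, 32.7 and 61.6 CPM at P14, against 22, 13.8 and 10.6 CPM at P10 (1.22 ± 0.56, adjusted p = 0.355), with overlap. For 8 weeks against P14 in EU libraries, 0 of 72 were called, against 0% of all genes, with 6 at an unadjusted p under 0.05 (9.14% of all genes) and 4 called by DESeq2. The groups of 10 genes did not overlap (13.9%, against 12.3% of all). Kcna1 was at 99.2, 149 and 157 CPM at 8 weeks, against 159, 234 and 154 CPM at P14 (-0.43 ± 0.55, adjusted p = 0.813). Kcnj10 was at 316, 334 and 12.7 CPM at 8 weeks, against 9.45, 15.1 and 50 CPM at P14 (3.15 ± 1.10, adjusted p = 0.465). Replicate 3 at 8 weeks stood apart from the others there, and without it 13 genes were called.

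Ribosome-bound RNA was compared with total EU-labelled RNA of the same SC age, TRAP over EU. At P14, 10 of 77 tested genes were called, 13% of them, 4 higher and 6 lower in TRAP, against 14.4% of all tested genes (5.73% higher and 8.64% lower). The share is near that of all genes. The median log2 fold change of the family was 0.06, against -0.01 over all genes. In each of the 10 genes the TRAP and EU libraries did not overlap. This held for 26 of the 77 genes (33.8%, against 37.2% of all), and 23 had an unadjusted p under 0.05 (29.9%, against 30.2% of all).

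The genes lower in TRAP included pores of the Kv1 and Kv3 branches and a Kv1 beta subunit. Kcna1 was at 14.4, 33 and 62.2 CPM in TRAP, against 183, 263 and 170 CPM in EU (-2.49 ± 0.51, adjusted p = 0.0128). Kcnc1 was at 63, 113 and 104 CPM in TRAP, against 300, 546 and 262 CPM in EU (-1.99 ± 0.41, adjusted p = 0.0129). All 3 TRAP values of these Kv1 and Kv3 pores were under the lowest EU value. Kcnt1 was at 43, 57.7 and 61.6 CPM in TRAP, against 202, 139 and 103 CPM in EU (-1.45 ± 0.37, adjusted p = 0.0256). Kcnab2 was at 128, 138 and 167 CPM in TRAP, against 354, 346 and 283 CPM in EU (-1.18 ± 0.32, adjusted p = 0.0315). All TRAP values of Kcnt1 and Kcnab2 also lay under their lowest EU value. Kcnh4, an ether-a-go-go-like channel, was at 0.108, 0.488 and 0 CPM in TRAP, against 2.63, 6.2 and 4.74 CPM in EU (-4.48 ± 1.35, adjusted p = 0.0484). Kcnh4 passed the filter on low counts through EU alone.

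The genes higher in TRAP were Kcnj10, a Kv4 partner, a leak channel and a calcium-activated channel. Kcnj10 was at 308, 82.1 and 475 CPM in TRAP, against 10.9, 17 and 55 CPM in EU (3.38 ± 0.73, adjusted p = 0.0157). Kcnip4, a Kv4 partner, was at 43.2, 10 and 31.5 CPM in TRAP, against 0.979, 1.6 and 6.22 CPM in EU (3.27 ± 0.82, adjusted p = 0.0253). Kcnk1 was at 53.4, 69.7 and 140 CPM in TRAP, against 37.4, 30.3 and 27.6 CPM in EU (1.46 ± 0.42, adjusted p = 0.0424). In CPM the range of each of these genes was wider among the TRAP libraries than in EU. Kcnn4, the intermediate-conductance channel of immune cells, was at 0.687, 1.16 and 1.78 CPM in TRAP and had no counts in EU, by the TRAP mean at least 24.7-fold higher against a floor of 3 counts over the EU group (adjusted p = 0.0225). Kcnn4 passed the filter on low counts through TRAP alone.

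Marker sums moved beside these genes. Microglial markers summed to 648 to 1187 CPM in TRAP and 297 to 485 CPM in EU, with 3 of 10 called higher, C1qa and C1qb among them. Müller glia markers, many of which astrocytes share, summed to 11507 to 22693 CPM in TRAP and 3863 to 8302 CPM in EU, with 2 of 10 called higher (Vim and Dkk3). Astrocyte markers summed to 4018 to 6318 CPM in TRAP and 3714 to 4752 CPM in EU, with 1 of 10 called higher (Gjb6), and 0 of the 9 RGC markers tested were called. Of 10 inhibitory neuron markers 2 were called higher and 1 lower, and of 10 thalamus markers 2 were called lower (Calb2 and Tcf7l2). The part of these cells in the channel result was not tested. Of 34 partner genes tested, 3 rose and 3 fell. Vapa, whose product anchors Kv2 clusters at membrane contacts, had a log2 fold change of 2.07 ± 0.55 (adjusted p = 0.0315), Amigo1, a Kv2 auxiliary protein, 1.72 ± 0.47 (adjusted p = 0.0328), and Calm2, a calmodulin, 1.44 ± 0.38 (adjusted p = 0.0309). The scaffold gene Dlg4 was at -1.80 ± 0.42 (adjusted p = 0.0192), the sulfonylurea receptor gene Abcc8 at -1.69 ± 0.51 (adjusted p = 0.0497) and Cntn2, an adhesion protein of the juxtaparanode, at -1.45 ± 0.35 (adjusted p = 0.0227).

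The P14 calls depend on the libraries used. Without TRAP replicate 3, 4 or 5 the count was 3, 3 or 2, without EU replicate 3, 4 or 5 it was 3, 5 or 18, and no gene was called in every one of these 6 fits. In replicates 1 and 2 alone 0 genes were called, and there Kcnj10 had a log2 fold change of -0.06, Kcnc1 0.38 and Kcnab2 1.63, each opposite in sign. That fit had 2 libraries per capture, and its EU replicate 1 had the lowest total of all libraries, 2558140 estimated counts.

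**Figure D3:**
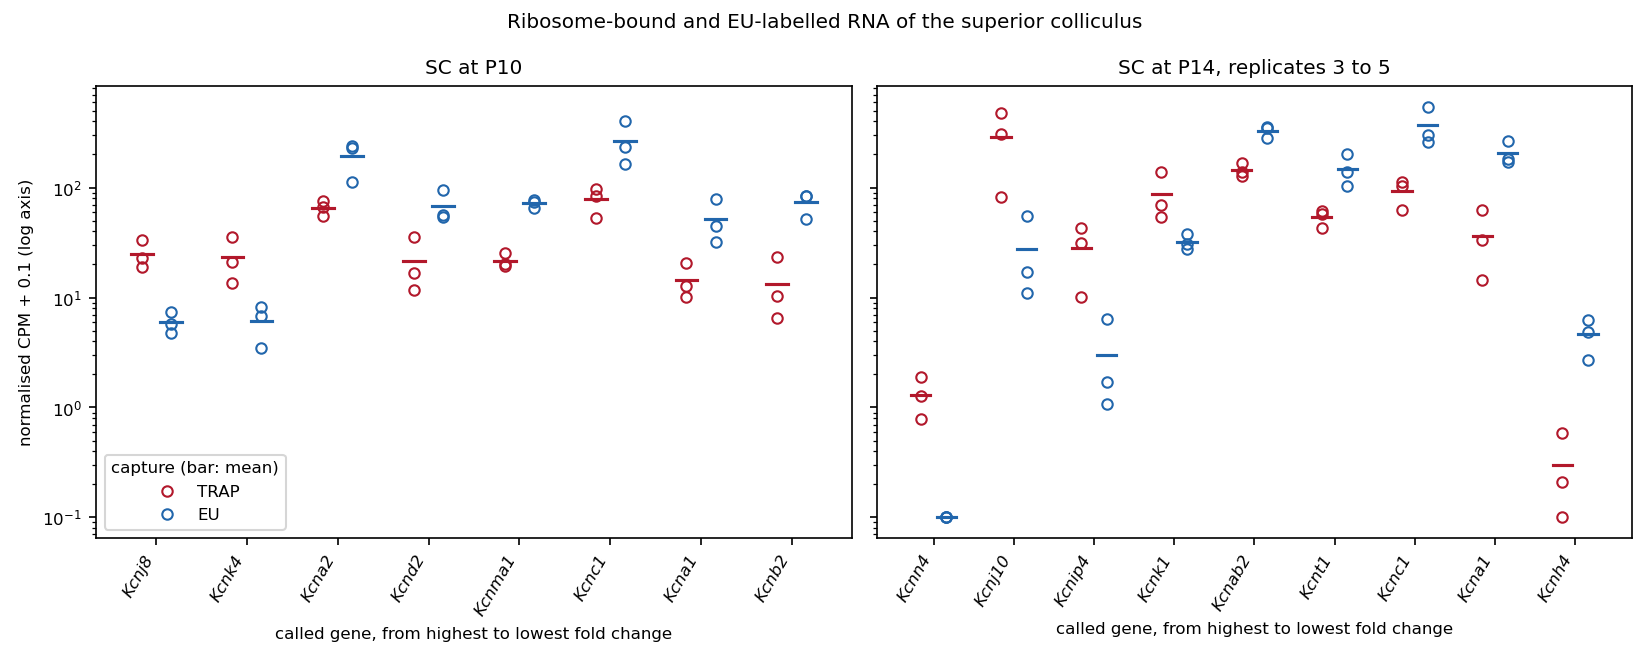
CPM (log axis, offset 0.1 CPM) of the genes called between TRAP and EU libraries of SC, by library with the mean as a bar, at P10 and at P14 (replicates 3 to 5). TRAP points of Kcna1 and Kcnc1 lie below the EU points at both ages, and those of Kcnj10 lie above them at P14.

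At P10, 9 of 72 tested genes were called, 12.5% of them, 2 higher and 7 lower in TRAP, against 17.4% of all genes (6.38% higher and 11.1% lower). The groups of 21 genes did not overlap (29.2%, against 38.9% of all), and 19 had an unadjusted p under 0.05 (26.4%, against 31.9% of all). Kcna1 and Kcnc1 were called lower in TRAP as at P14, and the other genes lower at P10 included Kv2, Kv4 and BK pores. Kcnma1 was at 19.3, 25.3 and 19.9 CPM in TRAP, against 65.4, 73.1 and 76.2 CPM in EU (-1.74 ± 0.34, adjusted p = 0.00891). Kcnma1, with narrow groups, was called in each of the 6 fits that left out a library, but not with a trend on transcript length removed. Kcnb2, a Kv2 pore, was at 23.3, 10.2 and 6.39 CPM in TRAP, against 83.5, 51.6 and 84.1 CPM in EU (-2.45 ± 0.52, adjusted p = 0.0111). Kcnc1 was at 96.7, 84.4 and 52.7 CPM in TRAP, against 400, 162 and 233 CPM in EU (-1.77 ± 0.43, adjusted p = 0.0187). Kcna2 was at 55.5, 74.7 and 66.2 CPM in TRAP, against 231, 113 and 239 CPM in EU (-1.57 ± 0.39, adjusted p = 0.0199). None of these genes overlapped between the captures.

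Kcna1 was at 20.4, 12.7 and 9.92 CPM in TRAP, against 44.2, 31.8 and 79.5 CPM in EU at P10 (-1.85 ± 0.48, adjusted p = 0.0241). Kcnd2, a Kv4 pore of dendrites, was at 35.3, 16.7 and 11.6 CPM in TRAP, against 53.6, 95 and 56.2 CPM in EU (-1.69 ± 0.48, adjusted p = 0.0368). The 2 genes higher in TRAP were Kcnj8, the Kir6.1 subunit known from pericytes and smooth muscle, and Kcnk4, a mechanosensitive leak channel. Kcnj8 was at 22.8, 18.9 and 33.2 CPM in TRAP, against 5.64, 7.36 and 4.63 CPM in EU (2.09 ± 0.48, adjusted p = 0.015). Kcnk4 was at 13.5, 20.9 and 35.8 CPM in TRAP, against 6.74, 8.06 and 3.41 CPM in EU (1.95 ± 0.56, adjusted p = 0.0373). Endothelial and pericyte markers, a list that holds Kcnj8 itself, summed to 476 to 714 CPM in TRAP and 210 to 335 CPM in EU. Of these 10 markers 2 were called higher, Kcnj8 included, and 1 lower. Other lists moved too: 3 of 10 astrocyte and 2 of 10 microglial markers were called higher, with 0 lower in either. Müller glia markers summed to 8632 to 17692.5 CPM in TRAP and 4104 to 6803 CPM in EU, with 1 of 10 called higher (Vim). RGC markers summed to 883 to 1024 CPM in TRAP and 1460 to 1627 CPM in EU, with 0 of 9 tested called. Of 9 inhibitory neuron markers tested 2 were called higher, and of 9 thalamus markers tested 1 was called lower. The part of these cells in the channel result was not tested. Of 33 partner genes tested, 1 rose and 6 fell at P10. Vapa had a log2 fold change of 3.17 ± 0.45 (adjusted p = 0.00305). Ank3 and Sptbn4, the ankyrin-G and beta-IV spectrin genes whose products anchor channels at the axon initial segment and nodes, fell, with Ank3 at -2.26 ± 0.41 (adjusted p = 0.00653) and Sptbn4 at -2.94 ± 0.69 (adjusted p = 0.0163). Ank2, the ankyrin-B gene, was at -2.62 ± 0.49 (adjusted p = 0.00752). Dlg4 was at -2.25 ± 0.48 (adjusted p = 0.0115), Cntn2 at -1.56 ± 0.49 (adjusted p = 0.0495) and the ubiquitin ligase gene Nedd4l at -1.24 ± 0.36 (adjusted p = 0.0393).

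Transcript length moved with the P10 result. Over the 72 tested genes the log2 fold change and the length of the longest transcript had a Spearman correlation of -0.60, a description over genes that share these libraries, and with a trend on length removed the count was 2. Kcnma1, Kcnb2, Kcnc1, Kcna2, Kcnd2 and Kcnk4 were among the genes that lost their call with that trend removed. Without TRAP replicate 2 or 3 the count was 5 or 4, and without EU replicate 1 or 3 it was 2 or 3. The change of the TRAP to EU ratio between P14 and P10 was tested as an interaction: edgeR called 0 of 79 genes, against 0% of all genes, with 5 at an unadjusted p under 0.05 (6.33%, against 11% of all) and 1 called by DESeq2. Without EU P14 replicate 5, edgeR called 1.

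In LGN at P14, edgeR called 0 of 75 genes between TRAP and EU, against 1.4% of all genes, with 20 at an unadjusted p under 0.05 (26.7%, against 27.4% of all), 10 called by DESeq2 and 7 by limma. In each direction all genes were called at 0.235% higher and 1.17% lower, and the groups of 32 channel genes did not overlap (42.7%, against 52.2% of all). Kcna2 was at 78.8, 117 and 50.8 CPM in LGN TRAP, against 328 and 407 CPM in LGN EU (-2.16 ± 0.60, adjusted p = 0.0609). Kcnab2 was at 298, 180 and 516 CPM in LGN TRAP, against 83.9 and 78.3 CPM in LGN EU (2.03 ± 0.68, adjusted p = 0.0852). Neither gene overlapped between the captures. Of 33 partner genes tested, 1 fell, Ank3 (-2.81 ± 0.56, adjusted p = 0.0436).

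The 2 targets were compared directly, SC over LGN, with the code series they share. The title codes of these libraries share a digit between SC and LGN, which the labels do not explain, and the fit does not use it. In EU libraries edgeR called 0 of 62 genes, against 0% of all genes, with 1 at an unadjusted p under 0.05 (1.61%, against 3.22% of all) and 0 called by DESeq2, and the groups of 19 did not overlap (30.6%, against 32.1% of all). With the shared digit as a replicate block, 1 of the 62 genes was called, against 80 of all 15448 genes tested. In TRAP libraries it called 0 of 76, against 0% of all genes, with 4 at an unadjusted p under 0.05 (5.26%, against 2.65% of all) and 0 called by DESeq2, and the groups of 16 did not overlap (21.1%, against 17% of all). With the block it called 0 there. Kcnc4 was at 160 and 195 CPM in SC TRAP, against 64.6, 43.1 and 30.7 CPM in LGN TRAP (1.94 ± 0.56, adjusted p = 1). Kcnc4 was at 73.1 and 140 CPM in SC EU, against 8.27 and 50.7 CPM in LGN EU (1.85 ± 0.98, adjusted p = 1). Kcnc2, a Kv3 subunit of fast-spiking cells, was at 19.1 and 13.7 CPM in SC TRAP, against 50.6, 44.6 and 79.3 CPM in LGN TRAP (-1.83 ± 0.68, adjusted p = 1). Neither gene overlapped between the targets, and neither passed the test. Summed over the family, LGN EU held 2349 ± 91.3 TPM (n = 2).

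EU libraries of P14 SC were next compared with EU-labelled panned RGC, SC over panned RGC. By their markers the SC libraries also held RNA of cells of the brain and the panned libraries RNA of rods, so the comparison is not one of axons with cell bodies alone. Of 63 tested genes 22 were called, 34.9%, with 17 higher and 5 lower in SC, against 22.4% of all genes (11% higher and 11.4% lower). The groups of 38 genes did not overlap (60.3%, against 46.8% of all), and 31 had an unadjusted p under 0.05 (49.2%, against 36.1% of all). The family had a median log2 fold change of 1.64, against 0.11 over all genes. The genes higher in SC covered Kv1, Kv3, M-current, GIRK and leak channels, and those lower in SC were led by Kcnv2.

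Kcna1 was at 126, 179 and 122 CPM in SC, against 0.0742, 1.2 and 0.0685 CPM in panned RGC (8.35 ± 1.23, adjusted p = 0.00382). Kcnd2 was at 14.3, 45.3 and 41.3 CPM in SC, against 0.0742, 0.332 and 0 CPM in panned RGC (7.94 ± 1.43, adjusted p = 0.00733). Both were called in each fit that left out a library. Kcnc1 was at 207, 371 and 188 CPM in SC, against 7.05, 15.5 and 43.8 CPM in panned RGC (3.53 ± 0.76, adjusted p = 0.0136). Kcnj11, the Kir6.2 subunit of ATP-sensitive channels, was at 20.2, 31.1 and 23.5 CPM in SC, against 1.45, 0.0664 and 0.342 CPM in panned RGC (5.29 ± 1.30, adjusted p = 0.022). The groups of these genes lay far apart, but Kcna1, Kcnd2 and Kcnj11 passed the filter on low counts through SC alone.

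A further 6 genes had no counts in panned RGC, and their folds are lower bounds against 3 counts over that group. Each bound uses the SC mean and leaves out the spread among the SC libraries. These genes passed the filter on low counts through SC alone. Kcnk2 (a mechanosensitive leak channel) was at 18.7, 7.53 and 9.99 CPM in SC, at least 228-fold higher (adjusted p = 0.011), and Kcnk10, its close relative, at 1.65, 12.4 and 7.45 CPM, at least 136-fold higher (adjusted p = 0.0201). Kcnj16 was at 5.94, 0.766 and 13.9 CPM in SC, at least 129.7-fold higher (adjusted p = 0.0239). Kcnq5 was at 9.56, 0.926 and 7.78 CPM in SC, at least 115-fold higher (adjusted p = 0.023). Each of these genes varied more than 2-fold among the SC libraries. Kcns1, a silent Kv2 modifier, was at 6.89, 3.64 and 7.41 CPM, at least 113-fold higher (adjusted p = 0.0174), and Kcnh4 at 1.81, 4.21 and 3.4 CPM, at least 59.2-fold higher (adjusted p = 0.0219). Kcnj12, Kcnt1, Kcna2, Kcnk3 and Kcnj9 were called higher too, with log2 fold changes between 2.12 and 6.99.

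Kcnv2, a silent Kv subunit of photoreceptors, had no counts in SC, against 717, 348 and 178 CPM in panned RGC, by the panned mean at least 12213-fold lower against a floor of 3 counts over the SC group (adjusted p = 0.00185). Kcne2, an accessory subunit, had no counts in SC, against 232, 36.5 and 1.3 CPM in panned RGC, by the panned mean at least 2648-fold lower (adjusted p = 0.0119). These bounds leave out the wide spread among the panned libraries, and Kcnv2 and Kcne2 passed the filter on low counts through panned RGC alone. Kcnj14, the Kir2.4 subunit, was at 1.96, 3.93 and 0.491 CPM in SC, against 931, 107 and 46.2 CPM in panned RGC (-7.40 ± 1.41, adjusted p = 0.00888). Panned replicate 1 was the highest for each of these genes, and all were called in each fit that left out a library. Kcnip4 was at 0.674, 1.09 and 4.46 CPM in SC, against 5.23, 73.4 and 61.5 CPM in panned RGC (-4.49 ± 1.23, adjusted p = 0.0293). Kcnd3, a Kv4 pore, was at 4.26, 2.62 and 16 CPM in SC, against 7.23, 229 and 251 CPM in panned RGC (-4.41 ± 1.24, adjusted p = 0.0322), with overlap between the groups.

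Rod markers moved with this comparison, with 10 of 10 lower in SC (3.66 to 11 CPM in SC and 13105 to 116855 CPM in panned RGC), as did 8 of 10 bipolar cell markers. Oligodendrocyte markers were higher in SC in 9 of 9 tested (9022 to 11905 CPM in SC and 23.5 to 141 CPM in panned RGC). Of 8 midbrain markers tested, 5 were higher in SC, Gata3 and Pax7 among them, and 1, Otx2, which bipolar cells share, was lower, with a median log2 fold change of 7.78. The midbrain sum, Otx2 included, was 226 to 319 CPM in SC and 299 to 721 CPM in panned RGC. RGC markers summed to 972 to 1290 CPM in SC and 180 to 778 CPM in panned RGC. The part of these cells in the channel result was not tested. In the FACS libraries of the eye, which held 95516 to 178102 CPM of the rod markers, the leading channels included Kcnj14 at 334 ± 54.6 TPM and Kcnv2 at 231 ± 27.6 TPM, followed by Kcnmb4 at 54.7 ± 13.4 TPM, Kcnab2 at 32.1 ± 6.87 TPM and Kcnn1 at 28.4 ± 14.7 TPM (SD, n = 3 each). In EU-labelled panned RGC Kcnj14 was at 459, 20.8 and 10.5 TPM, Kcnv2 at 170, 33.2 and 19.9 TPM, Kcne2 at 205, 12.4 and 0.509 TPM, Kcnk1 at 5.25, 32.6 and 29 TPM and Kcnab2 at 24.3, 5.75 and 19.4 TPM.

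Of 32 partner genes tested, 6 were higher and 2 lower in SC. Calm3 had a log2 fold change of 4.02 ± 0.57 (adjusted p = 0.00345), Sptbn4 4.87 ± 1.08 (adjusted p = 0.0152), Lgi1 7.83 ± 1.86 (adjusted p = 0.0197), Lgi3 4.11 ± 1.28 (adjusted p = 0.0468), the scaffold gene Dlg3 2.58 ± 0.67 (adjusted p = 0.0251) and Dpp6, a Kv4 auxiliary protein, 2.40 ± 0.61 (adjusted p = 0.0233). Calm2 was at -2.08 ± 0.60 (adjusted p = 0.0344) and Cntnap2, the Caspr2 protein that gathers Kv1 channels, at -2.61 ± 0.80 (adjusted p = 0.044). The count changed with the eye libraries used: against FACS libraries 42 genes were called, 38 of them higher in SC, and against panned RGC without the label 0 were. No share over all genes is given for these fits, so their counts do not set the family apart from other genes. Without SC replicate 3, 4 or 5 the count was 6, 6 or 9. Replicate 1 of unlabelled panned RGC stood apart from its group, with a mean correlation of 0.217 to the others. It held 122 CPM of the rod markers, against 21424 and 19144 CPM in the others. Mitochondrial genes took 7.89%, 55.2% and 46.5% of the counts in EU-labelled panned RGC, against 0.407% to 1.76% in SC.

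**Figure D4:**
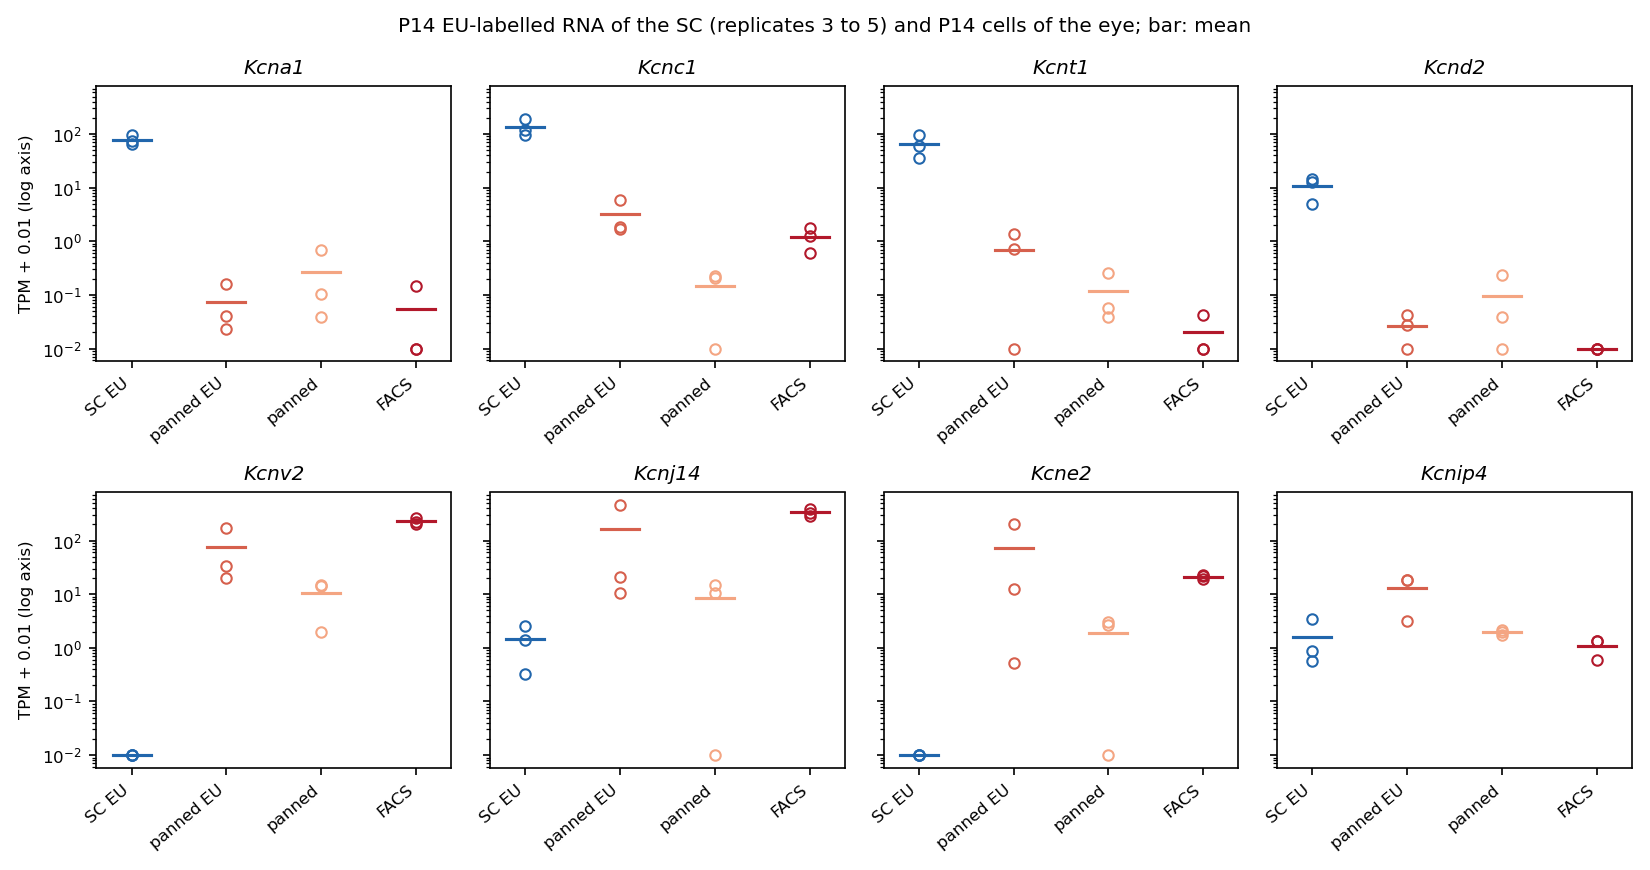
TPM (log axis, with 0.01 added) of 8 genes in EU libraries of P14 SC (replicates 3 to 5), EU-labelled panned RGC, panned RGC and FACS-sorted eye cells, with points for libraries and bars for means. Kcna1, Kcnc1, Kcnt1 and Kcnd2 are higher in all 3 SC libraries than in any eye library, and Kcnv2 and Kcne2 are listed at 0 in SC.

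The axotomized sarm1ko libraries, collected after a 7-day chase from P14, were compared with wild-type P14 EU libraries of SC. Sarm1 drives the breakdown of cut axons, and axons that lack it are known to survive long after they are cut. Of 72 tested genes 25 were called, 34.7%, with 8 higher and 17 lower in sarm1ko, against 37.6% of all genes (16.8% higher and 20.8% lower). The groups of 43 genes did not overlap (59.7%, against 57.8% of all), and 34 had an unadjusted p under 0.05 (47.2%, against 49.1% of all). The share is near that of all genes, and the median log2 fold change was -0.35 in the family and 0.16 over all genes. Genotype, axotomy, chase and age at collection differ together here and cannot be told apart.

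Genes lower in sarm1ko were led by a Kv4 partner, Kv3 and Kv1 subunits. Kcnip3 was at 15.7, 20.7 and 15.5 CPM in sarm1ko, against 127, 166 and 99.5 CPM in P14 (-2.92 ± 0.33, adjusted p = 0.00172). Kcnc4 was at 13.4, 15.9 and 9.51 CPM in sarm1ko, against 89, 124 and 56.9 CPM in P14 (-2.79 ± 0.39, adjusted p = 0.00197). Kcnab2 was at 39, 72.7 and 50.5 CPM in sarm1ko, against 249, 245 and 195 CPM in P14 (-2.09 ± 0.32, adjusted p = 0.00232). In each the highest sarm1ko library lay well under the lowest P14 library. Kcna6, a Kv1 pore, was at 18.8, 18.2 and 23.8 CPM in sarm1ko, against 54.7, 75.9 and 46.1 CPM in P14 (-1.54 ± 0.33, adjusted p = 0.00708). Kcna6 too was separated between the groups.

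Kcnk3, an acid-sensitive leak channel, was at 17.8, 21 and 20 CPM in sarm1ko, against 67.5, 62.7 and 49.3 CPM in P14 (-1.61 ± 0.31, adjusted p = 0.00467). Kcnj11 was at 6.33, 6.63 and 5.36 CPM in sarm1ko, against 20.7, 32.4 and 22.6 CPM in P14 (-2.04 ± 0.40, adjusted p = 0.00491). Kcnj9 was at 22.4, 32.5 and 24.8 CPM in sarm1ko, against 66.9, 101 and 57.4 CPM in P14 (-1.50 ± 0.34, adjusted p = 0.00835). These genes lay lower in all 3 sarm1ko libraries, while other inward rectifiers were called higher, and Kcnk3 was the 1 leak channel called of 9 tested (median log2 fold change 0.01). Kcnn1, a small-conductance calcium-activated channel, was at 4.27, 7.05 and 9.73 CPM in sarm1ko, against 29.2, 40.8 and 13.8 CPM in P14 (-1.996 ± 0.51, adjusted p = 0.0132). Also called lower were Kcnip2, Kcng1, Kcnc1, Kcng4, Kcnmb4 and Kcnt1, with log2 fold changes between -2.51 and -0.96.

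Among the genes higher in sarm1ko were inward rectifiers and an M-current subunit. Kcnj10 was at 94.4, 99.2 and 71.8 CPM in sarm1ko, against 7.69, 12.1 and 37.9 CPM in P14 (2.20 ± 0.54, adjusted p = 0.0113). Kcnq3 was at 58.7, 34.8 and 73.3 CPM in sarm1ko, against 14.2, 6.26 and 26.1 CPM in P14 (1.84 ± 0.51, adjusted p = 0.0192). Kcnj3, a GIRK subunit, was at 6.88, 4.11 and 6.01 CPM in sarm1ko, against 1.29, 0.799 and 1.34 CPM in P14 (2.31 ± 0.68, adjusted p = 0.0231). Kcnip4 was at 11.7, 8.53 and 9.84 CPM in sarm1ko, against 0.691, 1.13 and 4.29 CPM in P14 (2.30 ± 0.74, adjusted p = 0.0324). Kcnh7, an ether-a-go-go-related channel, was at 26.2, 14.5 and 26.8 CPM in sarm1ko, against 5.46, 4.53 and 13.4 CPM in P14 (1.53 ± 0.52, adjusted p = 0.0406). The groups did not overlap in any of these genes.

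A further 3 genes called higher stayed under 10 CPM in every library, as Kcnj3 also did. Kcnj2, Kcnj13 and Kcnmb1 passed the filter on low counts through sarm1ko alone. Kcnj13 lost its call without that filter, as did Kcnj3 and Kcnh7. Kcnj2, a strong inward rectifier, was at 3.88, 2.87 and 2.19 CPM in sarm1ko, against 0.126, 0.0999 and 0.118 CPM in P14 (4.64 ± 0.99, adjusted p = 0.00676). Kcnj13, a Kir7.1 channel, was at 0.87, 2.09 and 1.53 CPM in sarm1ko, against 0.188, 0.0999 and 0.0393 CPM in P14 (3.70 ± 1.17, adjusted p = 0.0306). Kcnmb1, a BK beta subunit of smooth muscle, was at 0.949, 0.814 and 8.31 CPM in sarm1ko, against 0.0628, 0.0333 and 0.393 CPM in P14 (4.33 ± 1.39, adjusted p = 0.0332), with sarm1ko replicate 3 far above the other libraries.

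Which libraries served as wild type mattered. Against the 4-day chase at P10, 9 genes were called (3 higher and 6 lower), Kcnip3, Kcnc4 and Kcnn1 among them, while Kcnj10 had a log2 fold change of -0.63 and Kcnip4 -0.08, opposite in sign. Against P14 replicates 1 and 2, 0 were called and 5 of the named genes had the opposite sign: Kcnj10 (-1.03), Kcnj13 (-0.08), Kcnab2 (0.05), Kcnk3 (0.23) and Kcnn1 (0.43). That reference had only 2 libraries, and its replicate 1 had the lowest total of all, 2558140 estimated counts. Without sarm1ko replicate 1 or 3, or P14 replicate 3 or 5, the count was 8, 12, 14 or 42. Kcnj10, Kcnip3, Kcnc4, Kcnab2, Kcnk3, Kcnj11 and Kcna6 were called in each of the 6 fits that left out a library.

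**Figure D5:**
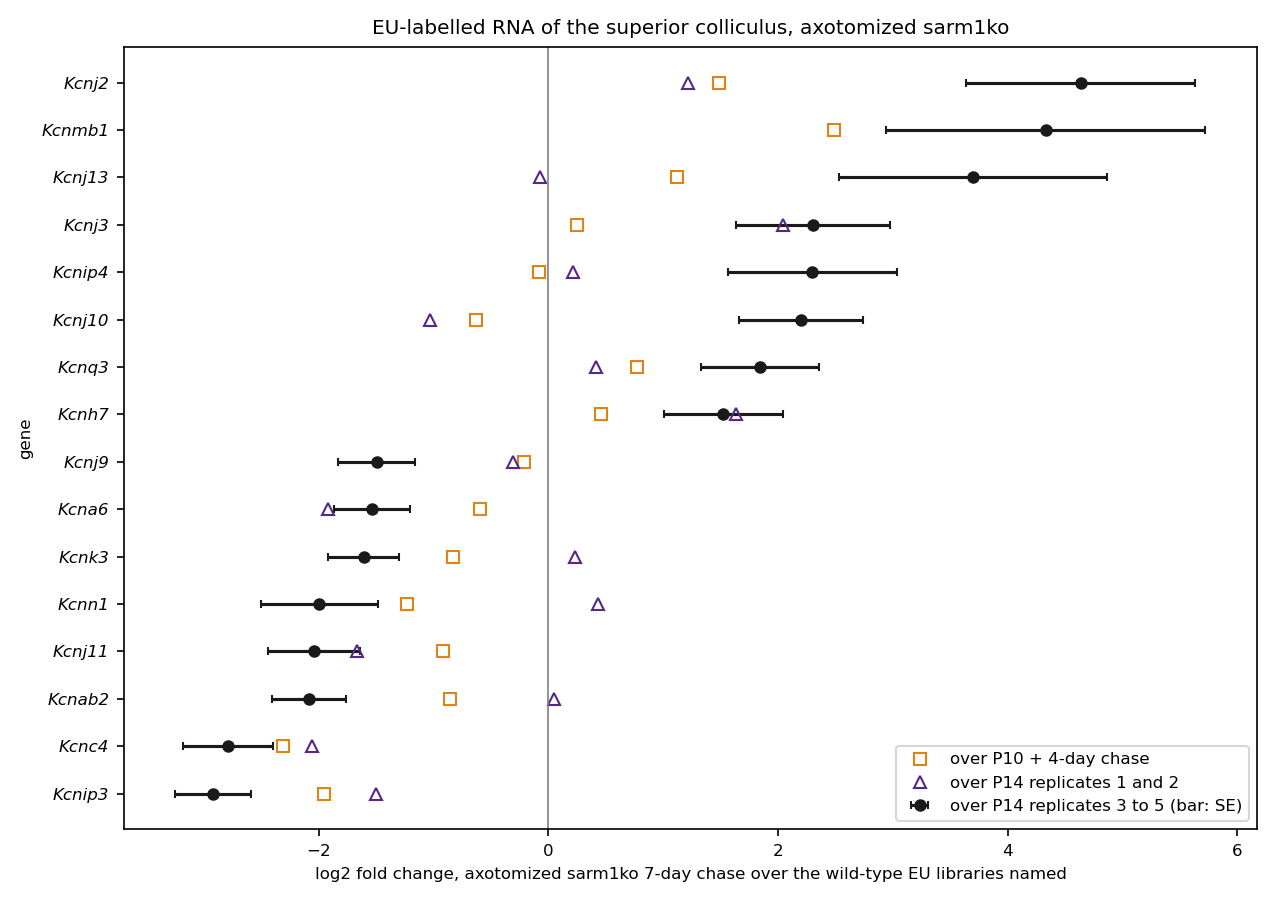
Log2 fold change of 16 named genes in axotomized sarm1ko EU libraries of SC over 3 sets of wild-type EU libraries: P14 replicates 3 to 5 (black points, bars are SE), P10 with a 4-day chase (orange squares) and P14 replicates 1 and 2 (purple triangles), with no mark where a wild-type set had no counts. Kcnip3 and Kcnc4 are below 0 against all 3 sets, and Kcnj10 is above 0 against the first alone.

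Composition moved with the comparison as well. RGC markers summed to 542 to 709 CPM in sarm1ko and 996 to 1346 CPM in P14, with 2 of 10 lower (Sncg and Thy1), and 4 of 10 microglial markers were lower. The ribosomal RNA gene CT010467.1 took 27.4% to 48.5% of the counts in sarm1ko and 4.54% to 33.7% in P14, and mitochondrial genes took 13.1% to 31.4% in sarm1ko and 0.407% to 1.76% in P14. With CT010467.1 and the mitochondrial genes left out of the fit, 25 channel genes were called, 8 higher and 17 lower. The part of RGC and microglia in the channel result was not tested. Of 33 partner genes tested, 6 rose and 9 fell. The ones that rose were Dpp10 (2.21 ± 0.43, adjusted p = 0.00472), Adam22 (2.08 ± 0.66, adjusted p = 0.0309), Cntnap2 (1.67 ± 0.50, adjusted p = 0.0249), Ank2 (1.47 ± 0.45, adjusted p = 0.0269), Lgi1 (1.20 ± 0.43, adjusted p = 0.05) and Ank3 (1.17 ± 0.39, adjusted p = 0.0395). The ones that fell included Calm3 (-3.20 ± 0.38, adjusted p = 0.00172), Abcc8 (-2.03 ± 0.44, adjusted p = 0.00715), Hcn3 (-1.85 ± 0.44, adjusted p = 0.0106), Dpp6 (-1.60 ± 0.30, adjusted p = 0.00449), Dlg3 (-1.49 ± 0.29, adjusted p = 0.00487), Hcn4 (-1.41 ± 0.50, adjusted p = 0.0468), Lgi3 (-1.30 ± 0.33, adjusted p = 0.0122) and Sptbn4 (-1.20 ± 0.42, adjusted p = 0.0457).

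In the libraries labelled fmr1ko, 1 gene was called in EU from SC. Fmr1 encodes FMRP, an RNA-binding protein known to bind potassium channel transcripts in brain. Kcnj10 was at 364, 444 and 188 CPM in the libraries labelled fmr1ko, against 9.31, 14.9 and 48.4 CPM in wild type (3.78 ± 0.64, adjusted p = 0.0416). This is 1 of 71 tested genes, 1.41%, against 1.11% of all genes (0.816% higher and 0.29% lower), so the share is near that of all genes. RNA composition moved with this comparison: mitochondrial genes took 11.3%, 40% and 9.58% of the counts in EU labelled fmr1ko, against 1.04%, 0.407% and 1.76% in wild type, and CT010467.1 took 0.303%, 0.0764% and 0.634%, against 10.9%, 4.54% and 33.7% in wild type. With these genes left out of the fit, Kcnj10 was still the 1 gene called (3.78, adjusted p = 0.045). The groups of 26 did not overlap (36.6%, against 32.1% of all), and 16 had an unadjusted p under 0.05 (22.5%, against 23.6% of all). The wild-type libraries are the same 3 that served in the TRAP and sarm1ko comparisons, where Kcnj10 was called too. In TPM Kcnj10 was at 2.49, 3.5 and 11.8 in these libraries, against 142 and 81.4 in P14 EU replicates 1 and 2. Those 3 were also below the 4-day chase libraries, at 81.9, 47.6 and 40.1 TPM. Without wild-type replicate 5, 13 genes were called, and without any other single library, or with all 5 wild-type libraries, 0 were.

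Kcna2 was at 508, 587 and 440 CPM in EU labelled fmr1ko, against 250, 184 and 264 CPM in wild type (1.14 ± 0.28, adjusted p = 0.0716). It did not pass the test, although the groups did not overlap. In TRAP from SC edgeR called 0 of 72 genes, against 0% of all genes, with 9 at an unadjusted p under 0.05 (12.5%, against 17.9% of all) and 8 called by DESeq2, and the groups of 15 did not overlap (20.8%, against 29.4% of all). Kcna1 was at 121, 0.0615 and 148 CPM in TRAP labelled fmr1ko, against 16.1, 37.1 and 69 CPM in wild type (1.14 ± 1.69, adjusted p = 0.836), with replicate 2 lowest of all. Replicate 2, the library with rod markers, also held 641 TPM of Kcnj14 and 210 TPM of Kcnv2, and without it 10 genes were called, 5 in each direction. No share over all genes is given for that fit. Replicates 1 and 3, the libraries left, held 1412 and 1817 TPM of Meg3. Among other groups they correlated most with EU groups of SC, labelled fmr1ko (0.863) and the 4-day chase (0.867). The genotype label and this likeness to EU libraries cannot be told apart there. In FACS-sorted eye cells edgeR called 0 of 38 genes, against 0.0593% of all genes, with 1 at an unadjusted p under 0.05 (2.63%, against 12.7% of all) and 1 called by DESeq2, and the groups of 4 did not overlap (10.5%, against 22.3% of all).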

How the data were processed

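The authors deposited 2 tables of the whole series, estimated counts per gene and TPM per gene, made with Salmon and mm10 per the submitters' processing notes; the labels state neither versions nor settings. Estimated counts were rounded to whole numbers. Members were matched by symbol through GENCODE M21 (GRCm38), which held 54097 of the 54331 gene IDs. The 92 genes and the gene lists were chosen with earlier results of these data known.

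Each of 14 comparisons of 2 groups was fitted alone with edgeR 4.0.16 (R 4.3.3): filterByExpr, TMM scaling, the quasi-likelihood F test, and Benjamini-Hochberg adjustment over all tested genes at 0.05. A further fit tested the interaction of capture and age. The procedure was tested on simulated data. CPM values are TMM-scaled within a comparison, and TPM values, which correct for length, serve for levels. Named were up to 10 called genes per direction by adjusted p, the genes with the highest TPM in the main groups, members of fixed role lists, and called partner genes; a few of these are not reported here, though counts include them. Alternatives were DESeq2 1.42.0, limma 3.58.1 on log2(TPM + 1), RLE scaling, no filter on low counts, a replicate block, removal of a length trend or of mitochondrial genes and CT010467.1, other reference libraries, and each library left out in turn. Totals of 2558140 to 48263700 estimated counts set the precision. Figures used matplotlib 3.10.9.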

Additional observations from a re-analysis of the deposited data

Results flagged for a closer look

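Of 24 sets of 5 TPM values, each 1 abundant gene over the libraries of 1 P14 SC group, 2 held a library far from the rest, where chance gives about 1 in 20. Kcnt1, the sodium-activated channel, was at 344 TPM in EU replicate 1 of P14 SC, where the other 4 libraries lay between 35.3 and 96.3 TPM. This EU library had the lowest total of all, 2558140 estimated counts. Kcnmb4, the neuronal BK beta subunit, was at 86.5 TPM in TRAP replicate 2 of P14 SC, where the other 4 libraries lay between 18.1 and 33.9 TPM. Both libraries belong to replicates 1 and 2, which entered the comparison of SC with LGN.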

How the results depend on the processing

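Counts of called genes moved most with the libraries and the tool. For TRAP over EU in P14 SC the count was 17 by DESeq2, 0 by limma without a filter, 5 with all 5 libraries and 0 with replicates 1 and 2, and 2 to 18 with 1 library left out. At P10 it was 14 without a filter, 2 with the length trend removed and 2 to 11 with 1 library left out. In LGN it was 7 without a filter, 10 by DESeq2 and 7 by limma. For SC over panned RGC it was 42 against FACS, 0 against unlabelled panned RGC and 6 to 27 with 1 library left out, and against FACS Kcnip4 (0.73) and Kcnd3 (3.59) had the opposite sign. For P14 over P10 it was 7 without a filter, 8 by DESeq2, 0 with all 5 libraries and 0 to 12 with 1 left out in EU, and 6 without a filter and 5 by DESeq2 in TRAP. At 8 weeks it was 3 without a filter, 4 by DESeq2 and 0 to 13 with 1 left out, and after the 4-day chase 8 without a filter and 8 by DESeq2. For sarm1ko it was 4 with all 5 P14 libraries, 9 against the 4-day chase, 0 against replicates 1 and 2 and 8 to 42 with 1 left out. For EU labelled fmr1ko it was 7 without a filter, 12 by DESeq2, 2 by limma, 0 with all 5 and 0 to 13 with 1 left out, for TRAP 8 by DESeq2, 3 with all 5 and 0 to 10 with 1 left out, and for FACS 1 by DESeq2. The interaction gave 2 without a filter, 1 by DESeq2 and 0 to 1 with 1 left out. With P14 replicates 1 and 2 alone, TRAP over EU reversed for Kcnj10 (-0.0575), Kcnc1 (0.38) and Kcnab2 (1.63). The sarm1ko fold changes that reversed were Kcnj10 (-0.63) and Kcnip4 (-0.0792) against the 4-day chase, and Kcnj10 (-1.03), Kcnj13 (-0.0762), Kcnab2 (0.0515), Kcnk3 (0.23) and Kcnn1 (0.43) against replicates 1 and 2. The cause was not tested. The settings with P14 replicates 1 and 2 alone and with the 4-day chase for sarm1ko were chosen after seeing the data. Of 871 values of named genes under alternatives, 593 kept direction and side of the threshold, 266 kept direction and lost the call and 12 reversed.

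Nothing in the labels says that a shared digit of the title codes marks animals or a day, and same-digit libraries did not all correlate over 0.1 in any comparison with 3 pairs. Between SC and LGN, with 2 pairs each, they did (0.297 in EU, 0.402 and 0.455 in TRAP). The correlations are of deviations from the group mean, which mirror each other where a group has 2 libraries. Both EU pairs thus hold 1 value by construction, and pairing there can be neither shown nor set aside. With the number as a replicate block the count was 13 for TRAP over EU at P14, 4 at P10, 1 for SC over LGN in EU, 17 for SC over panned RGC, 5 for P14 over P10 in EU, 26 for sarm1ko and 0 for EU labelled fmr1ko.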
